A study of Mus musculus with 9 samples.

Results

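The 48 cell cycle and proliferation genes described here were chosen by symbol from the 55359 genes of a mouse lung RNA-seq table. They comprise 8 genes of the G1 phase (cyclins, cyclin-dependent kinases and the transcription factor gene E2f1), 2 genes of cyclin-dependent kinase (CDK) inhibitors, 10 genes of DNA replication, 4 genes of nucleotide supply, 12 genes of mitotic cyclins, kinases and protein degradation, and 12 genes of the spindle, the kinetochore and the chromosomes. All 48 had enough reads to be tested, among 18268 genes tested in all.

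Lung tissue came from male C57BL/6J mice aged 6 to 8 weeks, in a study of atractylenolide III (ATL-III), a plant sesquiterpene lactone, in silica-induced lung fibrosis. The Silica + ATL-III group received 5 mg of silica in saline into the trachea and intraperitoneal ATL-III at 30 mg/kg/day. The Silica group received the same silica instillation, and the Control group received intratracheal saline alone. Each group had 20 mice, and lungs were taken on day 28. RNA of 3 libraries per group was sequenced, and no label says whether a library came from 1 mouse or from several. P-values therefore measure only the spread between these libraries. No group received ATL-III without silica, so its effect in lungs without silica was not measured, and the labels name no vehicle injection in the Silica or Control group.

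Cells enter the cycle when D-type cyclins with CDK4 or CDK6, and then cyclin E with CDK2, phosphorylate the retinoblastoma proteins and free E2F factors, which turn on genes of DNA replication. Genes of the mitotic cyclins, of spindle proteins and of the machinery that degrades cyclins are switched on later, in G2 and mitosis, and are repressed in resting cells by a complex that binds CHR elements in their promoters. Most cells of the adult lung are at rest, and dividing cells there are mostly macrophages, epithelial progenitors, endothelial cells, fibroblasts and recruited leukocytes.

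Counts assigned to genes ran from 16047175 to 17792481 per library. Libraries of one group correlated at 0.976 to 0.985 and libraries of different groups at 0.943 to 0.976, over log2 CPM (counts scaled to the library total) of the tested genes. All 10 lung marker genes checked, among them Sftpc of alveolar type 2 cells, Ager of alveolar type 1 cells, Scgb1a1 of club cells and Cldn5 of endothelial cells, were expressed. Levels are given in FPKM, counted fragments scaled to exon length and library total, as deposited. Of the 48 genes, 37 averaged under 5 FPKM in Control lungs and 6 averaged over 10 FPKM, with a range of 0.403 to 38.2 FPKM. The count of a single gene in a single library ran from 9 to 2442 reads, which limits the precision for the low genes. Reads were not stated to be counted by strand, and 14 of the 48 genes overlap a gene on the opposite strand that holds at least 10% as many reads. They are Ccnd1, Cdk4, Ccne2, Cdc45, Mcm7, Pclaf, Tk1, Ccna2, Cdc20, Ube2c, Plk1, Kif20a, Nusap1 and Prc1, and if reads were counted without strand, those of each pair cannot be told apart where the genes overlap. Ccnb2 has a pseudogene copy, Ccnb2-ps, with 108% of its reads, so its count is uncertain.

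In Silica against Control lungs, 8 of the 48 genes rose and none fell (edgeR's quasi-likelihood test, Benjamini-Hochberg adjusted p under 0.05 over all genes tested). The 8 genes were Rrm2 and Pcna of DNA synthesis, Pclaf, the mitotic genes Cdk1, Ccna2, Ccnb1 and Ube2c, and the CDK inhibitor gene Cdkn2c. Over all genes tested, 14.3% passed, with 8.45% higher and 5.84% lower, so 16.7% of the cell cycle genes rose beside a background of 8.45%. The log2 fold change was positive for 35 of the 48 genes, with a median of 0.30, against a median of 0.00 over all genes. With library totals in place of TMM scaling the median over all genes was -0.13 and that of the 48 genes 0.18. This change of scaling shifts all genes of a library alike, so it cannot test the gap between these medians. By limma on log2(FPKM + 0.5) the medians were -0.09 and 0.12. Of all calls, 59.2% were increases with TMM scaling, 33.2% with library totals and 35.3% by limma on log2(FPKM + 0.5). For the 0 decreases among the 48 genes, edgeR gave 0 at an unadjusted p under 0.05 and DESeq2 called 0. In bulk tissue, more cells of a dividing type and more RNA per cell cannot be told apart.

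Few of these calls held when single libraries were left out. Rrm2 and Pclaf passed in all 9 fits that each left out 1 library, with adjusted p of at most 0.0391 and 0.043. Cdk1 and Ccnb1 passed in 5 of them, Pcna and Ccna2 in 4, and Cdkn2c and Ube2c in 3. The count of increases was 2 without Silica 1, Silica 3 or Control 2, 3 without Control 1, 5 without Control 3 and 12 without Silica 2. Increases over all genes moved the same way, from 1544 in the main test to 589 without Silica 1 and 797 without Silica 3. They were 742, 738 and 551 without Control 1, Control 2 and Control 3, and 2341 without Silica 2. Limma on FPKM called 3 of the 48 with a pseudocount of 0.5 and 2 with 0.1, ending the calls of Cdkn2c, Pcna, Cdk1, Ccna2 and Ube2c with both. Library totals alone ended those of Cdkn2c, Ccna2 and Ube2c.

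Between Silica + ATL-III and Silica lungs, 10 of the 48 genes fell and 2 rose. Those that fell were Cdk4, Ccne1 and E2f1 of G1, the CDK inhibitor gene Cdkn2c, Pcna and Rrm2 of DNA synthesis, Cdk1 and Ccna2 of mitotic entry, and Nusap1 and Stmn1, whose products bind microtubules or tubulin. Those that rose were Ccnd3, which encodes cyclin D3, and Cdkn1a, which encodes the CDK inhibitor p21. Over all genes tested, 19.4% passed, with 8.94% lower and 10.4% higher, against 20.8% and 4.17% of the cell cycle genes. The log2 fold change was negative for 34 of the 48 genes, with a median of -0.28, against 0.00 over all genes. Since the Silica libraries stand in both comparisons, a gene that is high in them by chance rises in the first and falls in the second, and the values of both are given side by side with no test of their likeness.

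Ccnd3, Nusap1 and Stmn1 passed in all 9 fits without 1 library. E2f1 and Cdkn2c passed in 6 of them, Cdkn1a in 5, Ccne1, Cdk1 and Ccna2 in 4, Pcna in 3, Cdk4 in 2 and Rrm2 in 1. The count of decreases was 2 without Silica + ATL-III 2 or Silica 1, 3 without Silica 3, 4 without Control 1, and 7 to 12 without each other library. Decreases over all genes fell too, from 1634 to 856 without Silica + ATL-III 2, 945 without Silica 1 and 952 without Silica 3. They ran from 856 to 2054 over the 9 fits. The count of increases among the 48 was 1 without Silica + ATL-III 1, Silica + ATL-III 2, Silica 2 or Silica 3, where Ccnd3 alone passed, and 3 without Silica + ATL-III 3. A fit of only the 6 libraries compared left 4 decreases, ending those of Cdk4, Ccne1, Pcna, Rrm2, Cdk1 and Ccna2.

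Set against Control lungs, Silica + ATL-III lungs had 3 of the 48 genes higher (Ccnd3, Cdkn1a and Pclaf) and none lower. Over all genes tested, 14.5% passed, with 8.81% higher and 5.68% lower, against 6.25% of the cell cycle genes that rose. The median log2 fold change of the 48 genes was 0.04, against 0.01 over all genes. With library totals the medians were -0.11 and -0.14, and the share of increases among all calls was 33.9% in place of 60.8%. For the 0 decreases, edgeR gave 3 genes at an unadjusted p under 0.05, E2f1, Cenpf and Stmn1, and DESeq2 called 2, E2f1 and Cenpf. Among the 9 alternatives that kept every library of the groups compared, E2f1 was lower in 8 (all but RLE size factors), Stmn1 in 5, and Cenpf in 3 of the 8 that tested it. Leaving out Silica 1 added a call of E2f1 (adjusted p = 0.0419), leaving out Silica 2 added E2f1 and Stmn1 (0.0354 and 0.0207), and leaving out Control 2 added Cenpf (0.0268). Leaving out Silica + ATL-III 1 added Ccnd2 (0.0495). Ccnd3 and Cdkn1a passed in all 9 fits, and Pclaf lost its call without Silica + ATL-III 1, Silica + ATL-III 3, Silica 3 or any Control library.

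**Figure D1:**
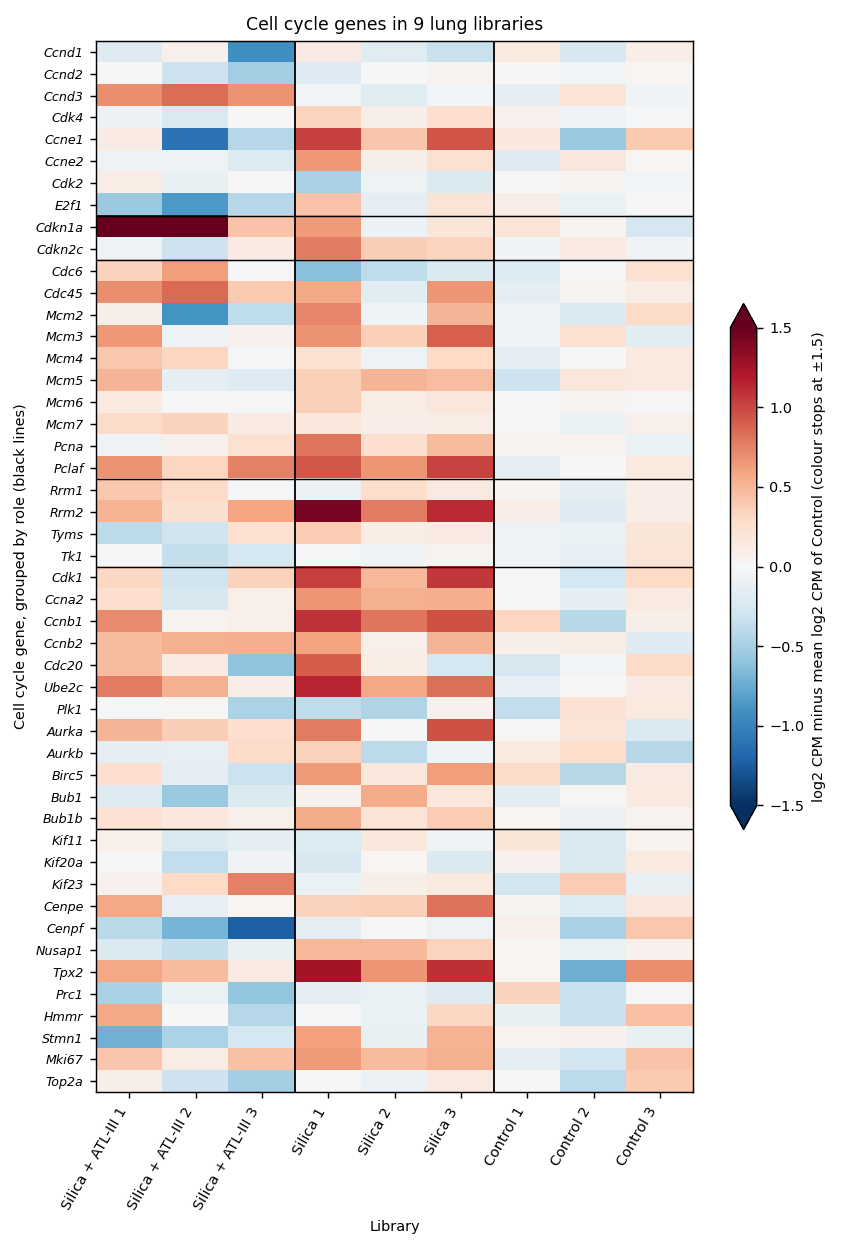
Log2 CPM of each of the 48 genes (down the page, in groups by role) in each library (across, Silica + ATL-III, Silica, Control), minus the mean of the 3 Control libraries, with colours ending at 1.5 on either side. The library medians over the 48 genes are 0.40, 0.09 and 0.28 in Silica, against 0.01, -0.07 and 0.10 in Control, and Cdkn1a and Ccnd3 stand out in the Silica + ATL-III columns.

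The heat map of log2 CPM by library shows how uneven the Silica libraries were. The median of the 48 genes, relative to the Control mean, was 0.18, -0.08 and -0.02 in the Silica + ATL-III libraries, 0.40, 0.09 and 0.28 in the Silica libraries, and 0.01, -0.07 and 0.10 in the Control libraries. Silica 2 thus lay within the range of the Control libraries, and Silica 1 lay farthest above it. Single genes are described below by whether the FPKM of 2 groups overlapped, and a lack of overlap was common. In Silica against Control it held for 7409 of the 18268 genes tested and for 15 of the 48. The counts were 6160 and 21 in Silica + ATL-III against Silica, and 7407 and 14 in Silica + ATL-III against Control. Of the 48 genes, 9 had their highest mean FPKM in Silica + ATL-III, 27 in Silica and 12 in Control. These FPKM are scaled to library totals and not by TMM, and the same count over all genes was not made.

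Promoter sequences are shown for the 5 genes with the largest log2 fold changes among the 8 that rose in Silica lungs, since the CCAAT box and the CHR element are the motifs known for genes expressed in G2 and mitosis. Each is the 120 bases before the annotated start in RefSeq on GRCm38.p6. The Cdk1 window is chr10:69352913-69353032 on the minus strand and that of Ube2c is chr2:164769809-164769928 on the plus strand. The Ccnb1 window is chr13:100786487-100786606 on the minus strand. The Rrm2 window is chr12:24708134-24708253 and the Pclaf window chr9:65890203-65890322, both on the plus strand. Capitals mark CCAAT and TTTGAA, the CHR core, on either strand (ATTGG and TTCAAA are the reverse complements).
Cdk1: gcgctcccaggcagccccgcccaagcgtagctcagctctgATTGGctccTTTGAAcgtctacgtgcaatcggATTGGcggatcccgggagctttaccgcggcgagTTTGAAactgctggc
Ube2c: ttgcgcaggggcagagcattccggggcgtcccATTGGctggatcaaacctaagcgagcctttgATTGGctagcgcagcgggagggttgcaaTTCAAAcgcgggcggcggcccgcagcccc
Ccnb1: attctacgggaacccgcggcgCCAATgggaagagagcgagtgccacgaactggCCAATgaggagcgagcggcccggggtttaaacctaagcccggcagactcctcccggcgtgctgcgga
Rrm2: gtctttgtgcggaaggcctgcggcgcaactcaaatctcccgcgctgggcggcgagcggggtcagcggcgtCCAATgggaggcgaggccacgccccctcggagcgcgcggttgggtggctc
Pclaf: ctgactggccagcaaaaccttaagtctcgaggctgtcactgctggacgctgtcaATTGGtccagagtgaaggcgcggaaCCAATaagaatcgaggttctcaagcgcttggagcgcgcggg

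All 5 windows hold CCAAT, and those of Cdk1 and Ube2c also hold TTTGAA. No other form of the CHR element was searched, so a window without TTTGAA may still hold one. Of the 48 genes, 39 were matched by symbol in the promoter table. In the 250 bases before the start, CCAAT was found in 29 of the 39 (74.4%), against 37.5% of all 27025 genes in the table. TTTGAA was found in 10 of the 39 (25.6%), against 18.3% of all genes, and both motifs together in the same 10 genes, against 6.45%. An E2F motif, TTTGGCGC or TTTCCCGC on either strand, was found in 5 of the 39 (12.8%), Cdk2, Cdc6, Mcm5, Mcm6 and Mcm7, against 1.51% of all genes. No matches of different motifs overlapped. The 10 genes with TTTGAA were Cdc45, Mcm2, Cdk1, Ccnb2, Cdc20, Ube2c, Kif11, Prc1, Mki67 and Top2a. Of these, 2 rose in Silica lungs, beside 5 of the 29 without the motif. In Silica + ATL-III, 1 passed against Silica, beside 9 of the 29, and 0 against Control, beside 3. Of the 29 genes with CCAAT, 6 passed in Silica against Control, 4 in Silica + ATL-III against Silica and 2 in Silica + ATL-III against Control. Those among the 10 without CCAAT were 1, 6 and 1. Of the 5 genes with the E2F motif, 0 passed in the main test, beside 7, 10 and 3 of the 34 without it. A match describes the letters of the window only.

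Of the 8 G1 genes, the cyclin D3 gene Ccnd3 was the one that rose. In this group, 0 passed in Silica against Control, at an unadjusted p under 0.05 only Cdk4 by edgeR, and 1 rose and 3 fell in Silica + ATL-III against Silica. Those last counts are 12.5% and 37.5% of the group, beside 10.4% and 8.94% of all genes. Ccnd3 had 11.3, 12.5 and 10.9 FPKM in Silica + ATL-III lungs, 6.52, 6.43 and 6.87 FPKM in Silica lungs and 6.92, 8.82 and 7.41 FPKM in Control lungs. Every Silica + ATL-III library lay above all 6 others. Cyclin D3 rose 1.78-fold over Silica (log2 fold change 0.83 ± 0.11 SE, adjusted p = 0.000454) and 1.66-fold over Control (0.73 ± 0.11, adjusted p = 0.000821). Ccnd1, which encodes cyclin D1, had 12.5, 15.1 and 7.35 FPKM in Silica + ATL-III lungs, 15.0, 13.2 and 11.5 FPKM in Silica lungs and 17.2, 13.4 and 17.0 FPKM in Control lungs. Its groups overlapped in all 3 comparisons, and none passed (adjusted p = 0.711 for Silica against Control, 0.623 for Silica + ATL-III against Silica and 0.395 for Silica + ATL-III against Control). Ccnd2, the cyclin D2 gene, averaged 11.3 ± 2.21 FPKM in Silica + ATL-III, 13.4 ± 1.60 FPKM in Silica and 15.0 ± 0.341 FPKM in Control lungs (SD, n = 3 each) and passed in no comparison.

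E2f1, Ccne1 and Cdk4 were the G1 genes that fell in Silica + ATL-III against Silica lungs. E2f1, an activating E2F factor, had 1.62, 1.29 and 1.73 FPKM in Silica + ATL-III lungs, 3.10, 2.24 and 2.78 FPKM in Silica lungs and 2.78, 2.47 and 2.62 FPKM in Control lungs. The Silica + ATL-III libraries lay below all others, while those of Silica and Control overlapped. The log2 fold change of E2f1 was -0.79 ± 0.20 (SE) in Silica + ATL-III against Silica (adjusted p = 0.0153) and -0.61 ± 0.20 against Control (adjusted p = 0.0555). The difference from Control passed in 8 of the 9 alternatives that kept every library compared, which gave adjusted p of 0.015 to 0.0525, and in 2 of the 9 fits without 1 library. Ccne1, the cyclin E1 gene that E2F factors induce, had 0.53, 0.20 and 0.34 FPKM in Silica + ATL-III lungs, 0.99, 0.69 and 0.99 FPKM in Silica lungs and 0.59, 0.35 and 0.72 FPKM in Control lungs. These levels rest on 9 to 47 reads per library. Ccne1 fell in Silica + ATL-III against Silica lungs (-1.30 ± 0.40, adjusted p = 0.0403). With limma on log2(FPKM + 0.5), which damps low genes, that difference was -0.71. Cdk4, the kinase partner of D-type cyclins, had 20.2, 18.2 and 21.0 FPKM in Silica + ATL-III lungs, 26.0, 23.8 and 25.9 FPKM in Silica lungs and 24.5, 22.8 and 23.3 FPKM in Control lungs. It fell by 0.33 on the log2 scale in Silica + ATL-III against Silica lungs (SE 0.10, adjusted p = 0.0439), a call kept in 2 of the 9 fits without 1 library and lost with no filter or with only the 6 libraries compared. Ccne2 and Cdk2, the genes of cyclin E2 and its kinase, passed in no comparison (smallest adjusted p of 0.0757 and 0.167).

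**Figure D2:**
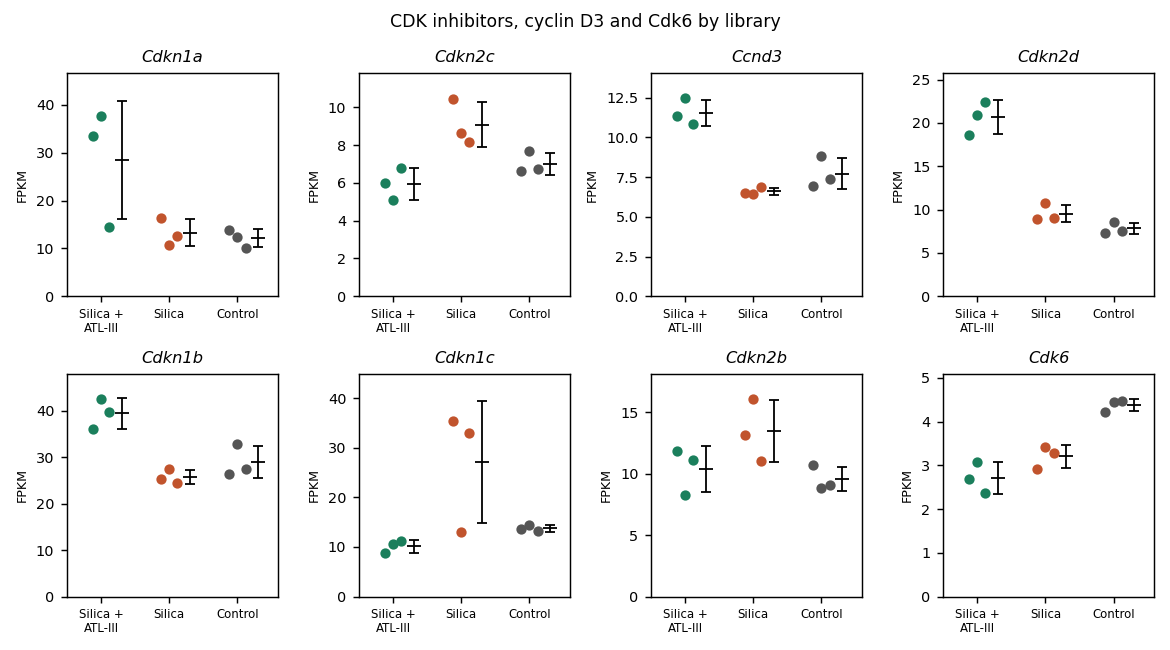
FPKM of 6 CDK inhibitor genes, Ccnd3 and Cdk6 in Silica + ATL-III, Silica and Control lungs, where points are the 3 libraries of each group and bars the mean ± SD. Ccnd3, Cdkn2d and Cdkn1b lie higher in every Silica + ATL-III library than in any other, Cdkn1a does so in all but Silica + ATL-III 3 (14.4 FPKM), and Cdkn2c and Cdkn1c lie lower in every Silica + ATL-III library than in any Silica library.

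Both CDK inhibitor genes among the 48 passed in more than 1 comparison. Cdkn1a, a p53 target that encodes p21, had 33.5, 37.6 and 14.4 FPKM in Silica + ATL-III lungs, 16.5, 10.8 and 12.6 FPKM in Silica lungs and 13.8, 12.5 and 10.1 FPKM in Control lungs. Silica + ATL-III 3 lay within the range of the Silica libraries and just above the highest Control library. Cdkn1a rose 2.16-fold in Silica + ATL-III against Silica (1.11 ± 0.29, adjusted p = 0.0184) and 2.6-fold against Control (1.38 ± 0.29, adjusted p = 0.00702). Leaving out Silica + ATL-III 1, Silica + ATL-III 2, Silica 2 or Silica 3 ended the call against Silica (adjusted p of at most 0.0864), as did limma on FPKM. Cdkn2c, which encodes the CDK4 and CDK6 inhibitor p18, had 6.01, 5.09 and 6.76 FPKM in Silica + ATL-III lungs, 10.5, 8.64 and 8.16 FPKM in Silica lungs and 6.62, 7.68 and 6.73 FPKM in Control lungs. Every Silica library lay above all 6 others. Cdkn2c rose in Silica against Control (0.50 ± 0.15, adjusted p = 0.0459) and fell in Silica + ATL-III against Silica (-0.59 ± 0.15, adjusted p = 0.0197).

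The plot of FPKM for CDK inhibitor genes also shows 4 that are not among the 48 but belong to a list of further inhibitors, along with Cdk6. Cdkn2d, which encodes the CDK4 and CDK6 inhibitor p19, had 18.6, 21.0 and 22.5 FPKM in Silica + ATL-III lungs, 8.91, 10.7 and 9.0 FPKM in Silica lungs and 7.31, 8.59 and 7.57 FPKM in Control lungs. It rose in Silica + ATL-III over Silica (1.14 ± 0.13, adjusted p = 0.000177) and over Control (1.55 ± 0.13, adjusted p = 1.49e-05). Cdkn1b, which encodes p27, had 36.0, 42.6 and 39.7 FPKM in Silica + ATL-III lungs, 25.4, 27.4 and 24.3 FPKM in Silica lungs and 26.4, 32.9 and 27.5 FPKM in Control lungs. It rose over Silica (0.64 ± 0.11, adjusted p = 0.00239) and over Control (0.60 ± 0.11, adjusted p = 0.00373). Cdkn1c, which encodes p57, went the other way: it had 8.73, 10.5 and 11.3 FPKM in Silica + ATL-III lungs, 35.3, 13.1 and 33.0 FPKM in Silica lungs and 13.6, 14.5 and 13.2 FPKM in Control lungs. Silica 2 again lay beside the Control libraries. Cdkn1c fell in Silica + ATL-III against Silica (-1.40 ± 0.29, adjusted p = 0.00635) and rose in Silica against Control (1.12 ± 0.29, adjusted p = 0.0259), a call that ended without Silica 1 or 3 or any Control library and with limma. Cdkn2b, which encodes p15, rose in Silica against Control (0.62 ± 0.17, adjusted p = 0.0351), a call that ended without Silica 1 or 2 or any Control library. The call of Cdkn2b also ended with library totals and with each limma fit. Cdk6, the second kinase partner of D-type cyclins, fell in Silica + ATL-III against Control (-0.54 ± 0.11, adjusted p = 0.00487), with 2.68, 3.08 and 2.36 FPKM in Silica + ATL-III lungs and 4.22, 4.45 and 4.48 FPKM in Control lungs.

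Markers of some other cell types also differed in Silica + ATL-III lungs. All 10 mature neutrophil markers rose against both Silica and Control, and their summed level was 30000 to 45300 FPKM in Silica + ATL-III, 721 to 4490 FPKM in Silica and 546 to 3890 FPKM in Control libraries. The 12 genes listed for immature neutrophils and granulocyte precursors summed to 1840 to 2730 FPKM in Silica + ATL-III, 1290 to 2060 FPKM in Silica and 532 to 685 FPKM in Control libraries. Of the 6 that could be tested, 5 rose in Silica + ATL-III against Silica, 6 in Silica + ATL-III against Control and 4 in Silica against Control. The 6 tested were Prtn3, Camp, Ltf, Ngp, Chil3 and Lcn2, and whether other cells of the lung expressed them was not tested. The others, Elane, Mpo, Ctsg, Ms4a3, Fcnb and Cebpe, had too few reads, so the counts do not cover them. All 10 B cell markers fell against both, with sums of 8.25 to 21.8 FPKM in Silica + ATL-III, 42.6 to 73.8 FPKM in Silica and 32.8 to 76.5 FPKM in Control libraries. None of 10 T and NK cell markers passed in either comparison by edgeR, with 5 and 1 below an unadjusted p of 0.05, all lower. No marker of these lists was at 0 in every library, and their part in the changes of the cell cycle genes was not tested.

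Genes of replication licensing and the replication fork contained 2 increases among 10 genes in Silica against Control, 1 decrease in Silica + ATL-III against Silica, and 1 increase in Silica + ATL-III against Control. These shares of 20%, 10% and 10% stood beside 8.45%, 8.94% and 8.81% of all genes, so the last 2 lay near the background. Pcna, which encodes the sliding clamp of DNA polymerases, was the highest of the 48 genes in Control lungs. It had 32.8, 36.2 and 39.7 FPKM in Silica + ATL-III lungs, 58.5, 43.3 and 49.1 FPKM in Silica lungs and 39.0, 40.0 and 35.7 FPKM in Control lungs. Every Silica library lay above all 6 others. Pcna rose in Silica against Control (0.53 ± 0.14, adjusted p = 0.0274) and fell in Silica + ATL-III against Silica (-0.45 ± 0.14, adjusted p = 0.038). Pclaf, whose product binds PCNA, had 1.76, 1.37 and 1.81 FPKM in Silica + ATL-III lungs, 2.03, 1.83 and 2.25 FPKM in Silica lungs and 1.08, 1.20 and 1.33 FPKM in Control lungs. The libraries of the 3 groups did not overlap. Pclaf rose 1.85-fold in Silica against Control (0.89 ± 0.18, adjusted p = 0.00934) and was higher in Silica + ATL-III than in Control (0.60 ± 0.18, adjusted p = 0.0428). Of the alternatives that kept every library compared, 2 of 9 kept that last call (RLE size factors and DESeq2), as did 3 of the 9 fits without 1 library. Silica + ATL-III against Silica did not pass (-0.28 ± 0.18, adjusted p = 0.279). Its opposite-strand neighbour Trip4 held 686% of its reads.

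The 6 MCM genes, whose products form the replicative helicase, passed in no comparison of the main test. Mcm2 had 1.18, 0.58 and 0.83 FPKM in Silica + ATL-III lungs, 1.79, 1.11 and 1.61 FPKM in Silica lungs and 1.15, 1.06 and 1.49 FPKM in Control lungs. Its groups overlapped throughout, and its log2 fold change was -0.78 ± 0.27 in Silica + ATL-III against Silica (adjusted p = 0.0592), a decrease that 4 of 9 alternatives, DESeq2 among them, did call. Mcm3 had 3.73, 2.24 and 2.42 FPKM in Silica + ATL-III lungs, 3.68, 3.20 and 4.51 FPKM in Silica lungs and 2.47, 3.09 and 2.34 FPKM in Control lungs, with a log2 fold change of 0.66 ± 0.21 in Silica against Control (adjusted p = 0.0549). That increase was called by 3 of 9 alternatives, DESeq2 among them, and in 2 of the 9 fits without 1 library. Cdc6, which loads the helicase onto DNA, had the opposite sign: 0.72, 0.87 and 0.53 FPKM in Silica + ATL-III lungs, 0.34, 0.44 and 0.48 FPKM in Silica lungs and 0.52, 0.61 and 0.72 FPKM in Control lungs. The Silica libraries lay below all others, and the log2 fold change of Cdc6 in Silica + ATL-III against Silica was 0.76 ± 0.26 (adjusted p = 0.0562). Cdc45, a helicase subunit, differed by 0.69 ± 0.29 in Silica + ATL-III against Control, and Mcm7 by 0.26 ± 0.11, neither past the threshold (adjusted p = 0.135 and 0.146).

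Of 4 genes of nucleotide supply, Rrm2 alone passed. Rrm2 encodes the small subunit of ribonucleotide reductase that is made in S phase. It had 1.53, 1.25 and 1.57 FPKM in Silica + ATL-III lungs, 2.80, 1.91 and 2.37 FPKM in Silica lungs and 1.23, 1.01 and 1.25 FPKM in Control lungs, from 45 to 135 reads per library. Every Silica library lay above all 6 others, and those of Silica + ATL-III and Control overlapped. Rrm2 rose 2.22-fold in Silica against Control (1.15 ± 0.23, adjusted p = 0.008) and fell in Silica + ATL-III against Silica (-0.68 ± 0.22, adjusted p = 0.0486), a call kept in 1 of the 9 fits without 1 library, that without Silica 2. Rrm1, the large subunit made throughout the cycle, averaged 3.34 ± 0.541 FPKM in Silica + ATL-III, 3.14 ± 0.498 FPKM in Silica and 3.16 ± 0.249 FPKM in Control lungs (SD, n = 3 each). Thymidylate synthase (Tyms) had 1.14, 1.22 and 1.72 FPKM in Silica + ATL-III lungs, 1.9, 1.70 and 1.66 FPKM in Silica lungs and 1.55, 1.56 and 1.88 FPKM in Control lungs, and thymidine kinase (Tk1) averaged 1.71 ± 0.219 FPKM in Silica + ATL-III, 2.01 ± 0.102 FPKM in Silica and 2.21 ± 0.267 FPKM in Control lungs (SD, n = 3 each). Neither Tyms nor Tk1 passed in any comparison.

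**Figure D3:**
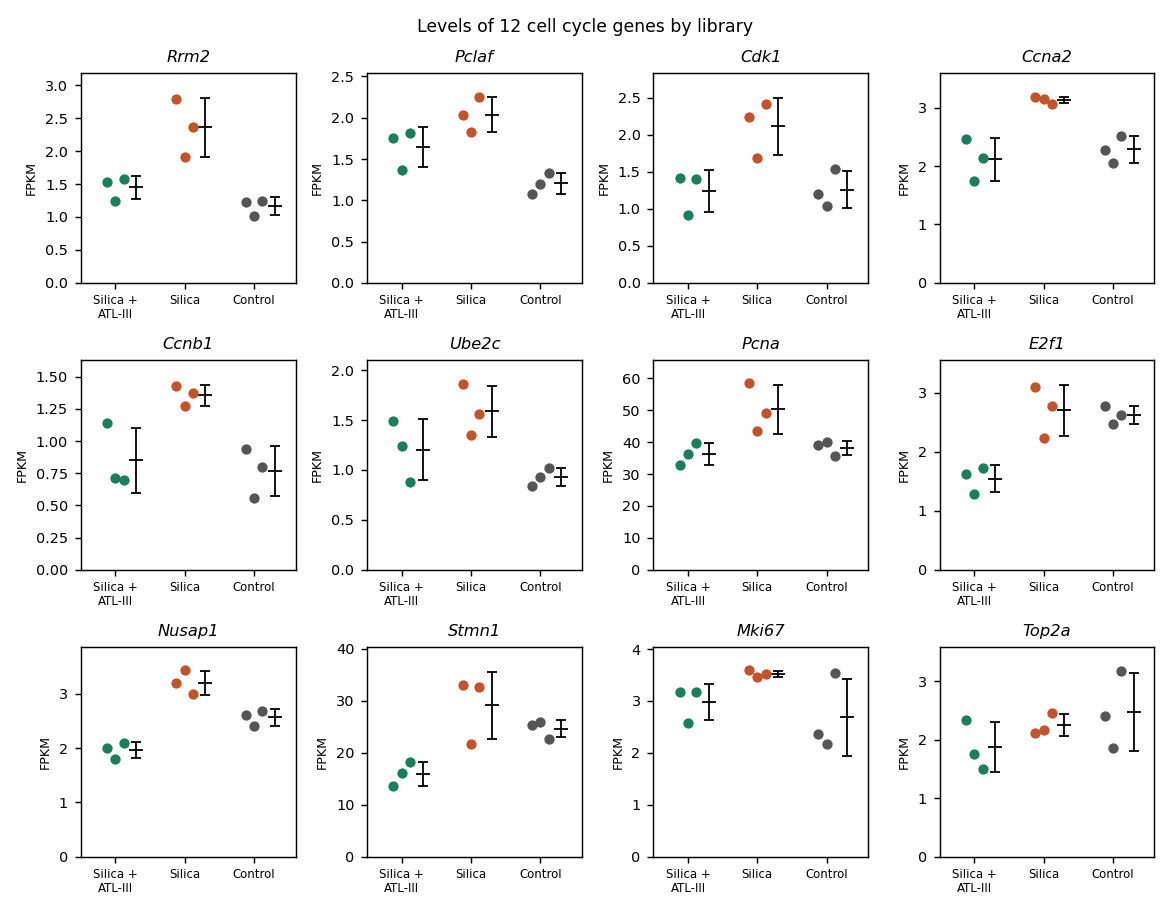
FPKM of 12 genes in Silica + ATL-III, Silica and Control lungs, where points are the 3 libraries of each group and bars the mean ± SD. Rrm2, Cdk1, Ccna2, Ccnb1 and Pcna lie higher in every Silica library than in any other library, E2f1, Nusap1 and Stmn1 lie lowest in Silica + ATL-III, and the Top2a groups overlap.

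The group of mitotic cyclins, kinases and degradation held 4 of the 8 increases in Silica against Control lungs. Of its 12 genes, 4 rose in Silica, 2 fell in Silica + ATL-III against Silica, and 0 passed in Silica + ATL-III against Control, where edgeR gave 1 at an unadjusted p under 0.05. The increases in Silica are 33.3% of the group, beside 8.45% of all genes. The decreases in Silica + ATL-III against Silica are 16.7%, beside 8.94%. Cdk1, the kinase that drives entry into mitosis, had 1.41, 0.91 and 1.40 FPKM in Silica + ATL-III lungs, 2.24, 1.68 and 2.41 FPKM in Silica lungs and 1.20, 1.04 and 1.53 FPKM in Control lungs. Every Silica library lay above all others, as the plot of FPKM for 12 genes shows. Cdk1 rose 1.84-fold in Silica against Control (0.88 ± 0.23, adjusted p = 0.0275) and fell in Silica + ATL-III against Silica (-0.75 ± 0.23, adjusted p = 0.0398). Silica + ATL-III differed from Control by 0.13 ± 0.24 (adjusted p = 0.764). Ccna2, the cyclin A2 gene, had 2.47, 1.74 and 2.14 FPKM in Silica + ATL-III lungs, 3.18, 3.15 and 3.07 FPKM in Silica lungs and 2.28, 2.06 and 2.51 FPKM in Control lungs. Its Silica libraries again lay above all others (0.58 ± 0.16 against Control, adjusted p = 0.0324, and -0.54 ± 0.16 for Silica + ATL-III against Silica, adjusted p = 0.0329). Its opposite-strand neighbour Exosc9 held 340% of its reads.

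Ccnb1, which encodes cyclin B1, the activator of CDK1, had 1.14, 0.71 and 0.70 FPKM in Silica + ATL-III lungs, 1.43, 1.27 and 1.37 FPKM in Silica lungs and 0.94, 0.56 and 0.80 FPKM in Control lungs. Every Silica library lay above all 6 others. Ccnb1 rose in Silica against Control (0.94 ± 0.26, adjusted p = 0.0317). The log2 fold change of Silica + ATL-III against Silica was -0.66 ± 0.26 and did not pass (adjusted p = 0.0912). Ube2c, the ubiquitin-conjugating enzyme that works with the anaphase-promoting complex to degrade cyclins, had 1.49, 1.24 and 0.88 FPKM in Silica + ATL-III lungs, 1.86, 1.35 and 1.56 FPKM in Silica lungs and 0.84, 0.93 and 1.02 FPKM in Control lungs. The Silica and Control libraries did not overlap, and those of Silica + ATL-III spanned both. Ube2c rose in Silica against Control (0.90 ± 0.26, adjusted p = 0.0382), and Silica + ATL-III against Silica was -0.38 ± 0.25 (adjusted p = 0.314). Bub1, a kinase of the spindle checkpoint, had 1.21, 0.93 and 1.17 FPKM in Silica + ATL-III lungs, 1.40, 2.16 and 1.57 FPKM in Silica lungs and 1.34, 1.56 and 1.70 FPKM in Control lungs. Its Silica + ATL-III libraries lay below all others, at -0.60 ± 0.20 against Silica (adjusted p = 0.054), a decrease that DESeq2 did call. The other genes of the group, Ccnb2, Cdc20, Plk1, Aurka, Aurkb, Birc5 and Bub1b, passed in no comparison.

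Among 12 genes of the spindle, the kinetochore and the chromosomes, 0 passed in Silica against Control by edgeR, where 4 were at an unadjusted p under 0.05, all higher. Of these 12 genes, 2 fell in Silica + ATL-III against Silica, or 16.7%, beside 8.94% of all genes. Nusap1, which encodes a microtubule-binding protein of the spindle, had 2.00, 1.80 and 2.10 FPKM in Silica + ATL-III lungs, 3.19, 3.43 and 2.99 FPKM in Silica lungs and 2.6, 2.40 and 2.69 FPKM in Control lungs. The 3 groups did not overlap, with Silica highest and Silica + ATL-III lowest. Nusap1 fell in Silica + ATL-III against Silica (-0.68 ± 0.14, adjusted p = 0.00605), and its 0.45 ± 0.14 in Silica against Control lay at the threshold without passing (adjusted p = 0.0501). DESeq2, the fit of only the 6 libraries compared and the fit without Silica + ATL-III 3 did call that increase. Stmn1 encodes stathmin, which destabilises microtubules. It had 13.6, 16.03 and 18.2 FPKM in Silica + ATL-III lungs, 33.0, 21.6 and 32.7 FPKM in Silica lungs and 25.3, 25.8 and 22.7 FPKM in Control lungs. Silica + ATL-III libraries lay below all others, at -0.85 ± 0.18 against Silica (adjusted p = 0.00613) and -0.48 ± 0.18 against Control (adjusted p = 0.095). Cenpf, a kinetochore protein gene, had 0.27, 0.22 and 0.15 FPKM in Silica + ATL-III lungs, 0.31, 0.37 and 0.34 FPKM in Silica lungs and 0.41, 0.28 and 0.52 FPKM in Control lungs, again lowest in Silica + ATL-III (-0.80 ± 0.27 against Control, adjusted p = 0.0673).

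Mki67 and Top2a, customary proliferation markers, passed in no comparison of the main test, unlike Pcna, described above. Mki67, which encodes the Ki-67 antigen, had 3.17, 2.57 and 3.17 FPKM in Silica + ATL-III lungs, 3.59, 3.47 and 3.51 FPKM in Silica lungs and 2.36, 2.16 and 3.53 FPKM in Control lungs. Control 3 lay within the range of the Silica libraries, and the difference of Silica from Control was 0.52 ± 0.17 (adjusted p = 0.0594), which 3 of 9 alternatives and the fit without Control 3 did call. Silica + ATL-III against Silica was -0.22 ± 0.17 (adjusted p = 0.386). Top2a, the topoisomerase that untangles chromosomes before mitosis, had 2.34, 1.76 and 1.5 FPKM in Silica + ATL-III lungs, 2.11, 2.17 and 2.46 FPKM in Silica lungs and 2.40, 1.85 and 3.17 FPKM in Control lungs. Its groups overlapped in every comparison (adjusted p = 0.968 for Silica against Control and 0.419 for Silica + ATL-III against Silica). Tpx2, which activates Aurora A on the spindle, had 1.29, 1.19 and 0.92 FPKM in Silica + ATL-III lungs, 1.99, 1.42 and 1.87 FPKM in Silica lungs and 0.95, 0.56 and 1.54 FPKM in Control lungs. Control 3 again overlapped the Silica libraries, and Silica differed from Control by 0.92 ± 0.31 (adjusted p = 0.062). DESeq2, the fit with no filter and the fits without Silica 2 or Control 3 did call Tpx2 higher. The kinesin genes Kif11, Kif20a and Kif23 and Cenpe, Prc1 and Hmmr passed in no comparison.

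**Figure D4:**
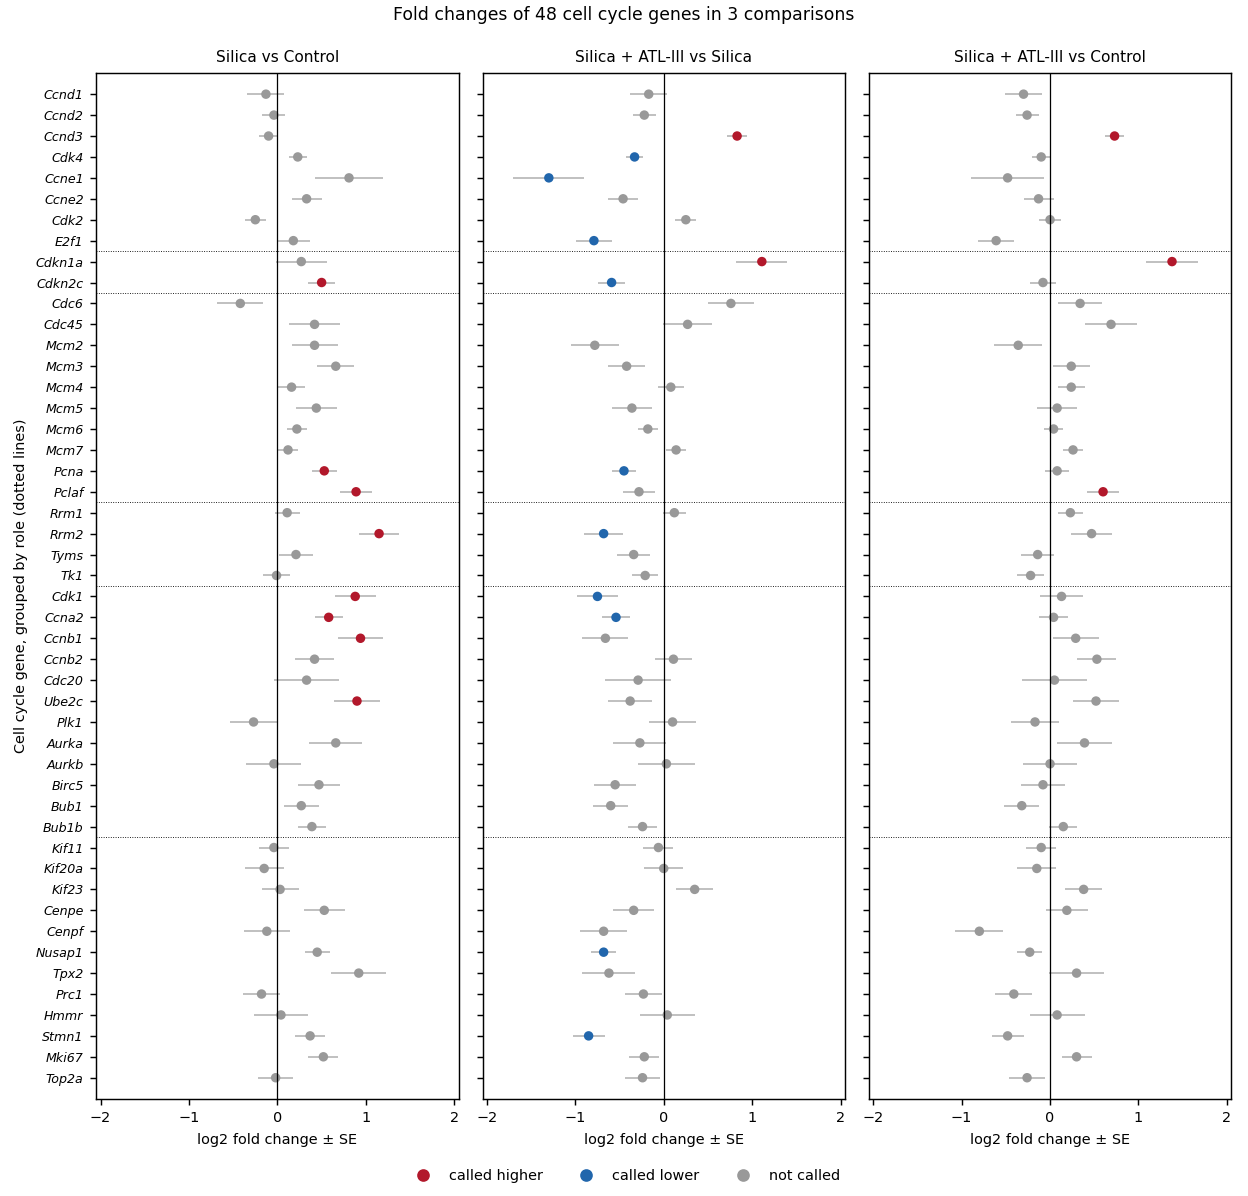
Log2 fold change ± SE of each of the 48 genes (down the page, in groups by role) in Silica against Control, Silica + ATL-III against Silica and Silica + ATL-III against Control, with red for genes that rose, blue for genes that fell and grey for the rest at an adjusted p under 0.05. The left panel has 8 red genes, the middle panel 2 red and 10 blue, and the right panel 3 red.

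The plot of fold changes sets the comparisons side by side. Pcna, Rrm2, Cdk1, Ccna2 and Cdkn2c are the genes that passed both in Silica against Control and, with the opposite sign, in Silica + ATL-III against Silica, and the Silica libraries are common to both. In Silica + ATL-III against Control their log2 fold changes were 0.08 ± 0.14 for Pcna, 0.47 ± 0.23 for Rrm2, 0.13 ± 0.24 for Cdk1, 0.04 ± 0.16 for Ccna2 and -0.08 ± 0.15 for Cdkn2c, none of which passed.

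A wider list of 138 genes of the cell cycle and its control, of which 137 are in the table and 135 were tested, includes 17 p53 target genes and the further CDK inhibitor genes, both described on their own as well. It gave 16 increases and 0 decreases in Silica against Control (2 lower at an unadjusted p under 0.05 by edgeR, 1 called lower by DESeq2). The share of increases, 11.9%, stood beside the background of 8.45%, and without the p53 targets it was 12 of 118, or 10.2%. Without a library the count of increases was 1 for Silica 1, 5 for Silica 3, 4 for Control 1, 4 for Control 2 and 3 for Control 3, and 14 to 18 for the others. Increases over all genes also fell without Silica 1, Silica 3 or any Control library. The count in the wider list was 7 with library totals or limma. Ncapg2, a condensin II subunit gene, had 1.38, 0.87 and 0.99 FPKM in Silica + ATL-III lungs, 2.58, 1.74 and 1.94 FPKM in Silica lungs and 0.91, 1.20 and 1.28 FPKM in Control lungs. It rose in Silica against Control (1.02 ± 0.21, adjusted p = 0.0115, 0.0526 without Silica 1) and fell in Silica + ATL-III against Silica (-0.94 ± 0.21, adjusted p = 0.0103). Other increases in Silica were those of Cks1b, a CDK-binding protein gene (0.70 ± 0.18, adjusted p = 0.0259), Trip13, an ATPase gene of checkpoint silencing (1.23 ± 0.33, adjusted p = 0.029), Slbp, which binds histone mRNA (0.47 ± 0.11, adjusted p = 0.0211), Gins2 of the replicative helicase (1.07 ± 0.29, adjusted p = 0.0316) and Gmnn, which encodes the licensing inhibitor geminin (0.50 ± 0.14, adjusted p = 0.036). All 5 calls ended without Silica 1 and without Control 3, and each ended in 4 to 6 of the 9 fits without 1 library. Those of Slbp and Gmnn also ended with library totals and with each limma fit. With limma on log2(FPKM + 0.5) the difference of Trip13 was 0.57.

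The wider list gave, in Silica + ATL-III against Silica, 6 increases and 12 decreases (4.44% and 8.89%, beside 10.4% and 8.94% of all genes). Without the p53 targets these were 3 and 11 of 118. The decreases were 6 among 55 further mitotic genes, 3 among 35 further replication genes and 3 among the rest. Without Silica + ATL-III 2 or Silica 1 the count was 3, without Silica + ATL-III 1 it was 6, and without Silica 3 it was 7. Decreases over all genes also fell without Silica + ATL-III 2, Silica 1 or Silica 3. Ect2, which drives cytokinesis, fell by 0.87 on the log2 scale (adjusted p = 0.0167), Mad2l1 of the spindle checkpoint by 0.51 (adjusted p = 0.0172), Uhrf1, which maintains DNA methylation, by 0.79 (adjusted p = 0.0339), Slbp by 0.38 (adjusted p = 0.0372), Dut, which encodes dUTPase, by 0.54 (adjusted p = 0.049) and E2f3, an activating E2F gene, by 0.54 (adjusted p = 0.0466). All 6 calls ended without Silica 1 and also without Silica + ATL-III 2. That of E2f3 ended in all 9 fits without 1 library and was kept in 4 of 9 other alternatives, and those of Dut and Slbp were kept in 1 and 2 of the 9 fits. Rbl2, which encodes the retinoblastoma-like protein p130, rose (0.53 ± 0.12, adjusted p = 0.0101). Against Control, Silica + ATL-III lungs had 7 increases in the list (5.19%, beside 8.81% of all genes), 4 of them p53 targets, which DESeq2 put at 11, and 1 decrease, that of Cdk6, which library totals put at 6.

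Genes of the p53 pathway, to which Cdkn1a belongs, held 4 increases among 17 genes in Silica against Control (23.5%, beside 8.45% of all genes) and 4 in Silica + ATL-III against Control (23.5%, beside 8.81%). In Silica + ATL-III against Silica they held 3 increases and 1 decrease (17.6% and 5.88%, beside 10.4% and 8.94%), with 9 positive and 8 negative log2 fold changes and a median of 0.04. Trp53inp1 had 89.9, 81.1 and 51.0 FPKM in Silica + ATL-III lungs, 33.3, 31.5 and 34.5 FPKM in Silica lungs and 40.9, 50.0 and 47.9 FPKM in Control lungs. Btg2, an antiproliferative gene, had 87.2, 109 and 62.8 FPKM in Silica + ATL-III lungs, 40.9, 43.0 and 51.0 FPKM in Silica lungs and 50.6, 61.3 and 50.9 FPKM in Control lungs. For both, every Silica + ATL-III library lay above all others, with Silica + ATL-III 3 the lowest of the 3, as for Cdkn1a. Trp53inp1 rose against Silica (1.18 ± 0.18, adjusted p = 0.000887) and Control (0.83 ± 0.17, adjusted p = 0.00729), and Btg2 likewise (0.96 ± 0.17, adjusted p = 0.00252, and 0.82 ± 0.17, adjusted p = 0.00673). Gadd45a, a stress gene that slows the cycle, rose in Silica + ATL-III against Control (1.18 ± 0.19, adjusted p = 0.00164). Phlda3, an inhibitor of AKT signalling, had the pattern of Cdkn2c and Cdkn1c: 13.4, 9.92 and 10.5 FPKM in Silica + ATL-III lungs, 28.5, 16.8 and 22.2 FPKM in Silica lungs and 13.4, 11.2 and 11.6 FPKM in Control lungs. It rose in Silica against Control (1.03 ± 0.20, adjusted p = 0.00739) and fell in Silica + ATL-III against Silica (-0.99 ± 0.20, adjusted p = 0.0053). The apoptosis genes Bax and Pmaip1 rose in Silica against Control (0.58 ± 0.14, adjusted p = 0.0193, and 0.56 ± 0.16, adjusted p = 0.0401). Both calls ended without Silica 1, Control 2 or Control 3, and that of Pmaip1 also without Silica + ATL-III 2, Silica 3 or Control 1. Pmaip1 also lost its call with library totals and with each limma fit.

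Among markers of further cell types, those of macrophages and of alveolar type 2 cells held increases in Silica lungs and decreases with ATL-III, and those of endothelial cells and fibroblasts held decreases in Silica lungs. Over all genes tested, 8.45% rose and 5.84% fell in Silica against Control. In Silica + ATL-III the shares were 10.4% and 8.94% against Silica, and 8.81% and 5.68% against Control. A count of 1 of 10 markers, or 10%, lies near most of these shares. Of 9 macrophage markers tested, 6 rose in Silica against Control, 4 fell in Silica + ATL-III against Silica and 4 rose in Silica + ATL-III against Control. The 10 listed macrophage markers summed to 173 to 190 FPKM in Silica + ATL-III, 220 to 363 FPKM in Silica and 116 to 125 FPKM in Control libraries. Of 10 alveolar type 2 markers, 5 rose in Silica against Control, 5 fell in Silica + ATL-III against Silica, and 1 rose and 2 fell in Silica + ATL-III against Control. Their sums were 22700 to 30100 FPKM in Silica + ATL-III, 28400 to 33900 FPKM in Silica and 22200 to 30500 FPKM in Control libraries. Of 10 germinal centre B cell and plasma cell markers, 1 rose and 1 fell in Silica against Control, 3 rose and 3 fell in Silica + ATL-III against Silica, and 3 rose in Silica + ATL-III against Control. They summed to 212 to 232 FPKM in Silica + ATL-III, 200 to 340 FPKM in Silica and 185 to 255 FPKM in Control libraries. Of 10 endothelial markers, 3 fell in Silica against Control, 5 rose and 1 fell in Silica + ATL-III against Silica, and 3 rose and 3 fell in Silica + ATL-III against Control. Their sums were 298 to 380 FPKM in Silica + ATL-III, 213 to 272 FPKM in Silica and 307 to 346 FPKM in Control libraries. Of 10 fibroblast markers, 2 fell in Silica against Control, and 1 rose and 5 fell in Silica + ATL-III against either other group. They summed to 825 to 1340 FPKM in Silica + ATL-III, 1220 to 1470 FPKM in Silica and 1820 to 2080 FPKM in Control libraries. Of 6 erythroid precursor markers tested, 0 passed by edgeR, with 1, 0 and 0 at an unadjusted p under 0.05 in Silica against Control, Silica + ATL-III against Silica and Silica + ATL-III against Control. No listed marker was at 0 in every library, and the part of these cells in the levels of the cell cycle genes was not tested.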

How the data were processed

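Total RNA of lung tissue was poly(A)-selected, fragmented and copied from random primers, as the labels' protocols state. The submitters' processing notes list HISAT2 2.0.1, HTSeq 0.6.1 and cutadapt 1.9.1 with build mm10, and give no roles. The annotation release and the strand setting were not given in the sources used here. Per the file headers, the deposited table holds whole-number counts of reads per gene and library and the FPKM values of the authors. FPKM recomputed from counts, exonic length and column totals matched 100% of the deposited values within 0.006. Of 55359 genes, 1438 have no symbol. The build of the table's positions is unknown, so no position from it is printed.

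The main test was edgeR 4.0.16's quasi-likelihood test in R 4.3.3 on the deposited counts, with TMM normalization and 1 fit of 3 group means over 9 libraries (6 residual degrees of freedom), over the 18268 genes kept by filterByExpr at a count minimum of 10. Calls needed a p under 0.05 after Benjamini-Hochberg adjustment over all of them. SE was taken as the absolute log2 fold change over the root of the F statistic, and fold changes are TMM-scaled while printed FPKM are not. The fit was tested on simulated counts in which 200 genes were changed, once per comparison. It recovered 19.3% to 24.3% of 1.5-fold changes, 48.3% to 77.1% of 2-fold changes and 85.5% to 91.7% of 4-fold changes. Of 115 to 132 calls, 6 to 8 were false. Fewer genes differed there than were called in the lungs, so recovery in the lungs may differ. A gene that did not pass may still have changed. Log2 CPM used a prior count of 2. Alternatives were other size factors, library totals, DESeq2 1.42.0, an FPKM filter (at least 1 in at least 3 libraries) or no filter, limma 3.58.1 on log2(FPKM + 0.5) and log2(FPKM + 0.1), only the 6 libraries compared, a replicate block, and leaving out each library.

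The 48 genes, the other lists and the rule for named genes were chosen with earlier results of these data known. The rule takes 11 genes always, and per comparison and role the 3 genes with the smallest p; from other lists, the called genes with the 3 smallest p and the first in the other direction. Trip4, Exosc9 and Ccnb2-ps were named for their overlap or copy, and Ccnd2, Rrm1, Tk1, Ccne2, Cdk2, Cdc45 and Mcm7 are covered by their role. No replicate pair agreed within counting noise (chi-square per degree of freedom at least 6.44). Promoter windows come from a RefSeq table of GRCm38.p6.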

Additional observations from a re-analysis of the deposited data

How the results depend on the processing

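Increases among the 48 genes in Silica against Control were 5 with library totals, 3 with limma on log2(FPKM + 0.5) and 2 with log2(FPKM + 0.1), and 2 to 12 without 1 library (decreases 0 to 0). Over all genes, increases were 894 and 876 with limma (pseudocounts 0.5 and 0.1) and 551 to 2341 without 1 library, and decreases 2068 with library totals, 1687 with no filter, 1640 with limma on log2(FPKM + 0.5) and 276 to 1772 without 1 library. In Silica + ATL-III against Silica, increases among the 48 were 1 with either limma fit and 1 to 3 without 1 library, and decreases 4 with only the 6 libraries compared and 2 to 12 without 1 library. Over all genes these were 1171 to 2069 and 856 to 2054 without 1 library. In Silica + ATL-III against Control, increases among the 48 were 2 to 3 without 1 library. Decreases, 0 in the main test, were 3 with library totals, 2 with DESeq2, 1 with the FPKM filter, 3 with no filter, 2 with each limma fit, 1 with the replicate block, 2 with only the 6 libraries compared and 0 to 2 without 1 library. Over all genes, increases were 1056 and 1044 with limma and 964 to 1844 without 1 library, and decreases 2227 with library totals, 1936 and 1900 with limma and 629 to 1244 without 1 library. The cause was not tested.

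Signs turned only for differences that did not pass. In Silica against Control, Top2a was 0.00 with the replicate block and -0.20 to 0.19 without 1 library (0.03 without Silica 2, 0.19 without Control 3), and Rrm1 was -0.01 with library totals and -0.02 with each limma fit. For Silica + ATL-III against Silica, Ccnd1 was -0.40 to 0.07 without 1 library (0.07 without Silica + ATL-III 3). For Silica + ATL-III against Control, Cdkn2c was -0.20 to 0.00 without 1 library (0.00 without Silica + ATL-III 2). Pcna was -0.08 with library totals and with each limma fit and -0.01 to 0.15 without 1 library (-0.01 without Silica + ATL-III 3). Cdk1 was -0.02 with library totals, -0.02 and -0.03 with limma, and -0.01 to 0.30 without 1 library (-0.01 without Control 2). Replicate numbers did not pair the libraries: same-numbered deviations correlated at -0.108 to 0.105, and 1 of 9 pairs was over 0.1. With the replicate block the 48 genes gave 7 increases and 0 decreases in Silica against Control, 2 and 9 in Silica + ATL-III against Silica, and 2 and 1 in Silica + ATL-III against Control. The block ended the calls of Cdkn2c and Ube2c in the first comparison, Cdk4 and Pcna in the second and Pclaf in the third, and added Mki67, Mcm2 and E2f1. Low counts, down to 9 reads, limit what can be seen for Ccne1, Cenpf and similar genes.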
